A study of Mus musculus with 26 samples.

Results

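The cytosolic ribosomal protein (RP) genes encode the proteins that, with ribosomal RNA, build the small (40S) and large (60S) subunits of the ribosome. They were taken by symbol: names of the form Rpl or Rps with a number, a few paralogs with a suffix letter, Rplp0, Rplp1, Rplp2, Rpsa and Rack1, without the -ps names of pseudogenes. This gave 90 of the 52636 genes in the files. The rule itself uses no measured value, but it was chosen with earlier results of these data known. The annotation calls 6 of them processed pseudogenes in spite of their names: Rpl6l, Rpl32l, Rps3a2, Rps3a3, Rps4l and Rps12l1. They were followed in 26 bulk RNA-seq libraries of mouse bone marrow cells, in 6 groups of wild-type (WT) and Prss57-/- knockout (KO) cells. Prss57 encodes neutrophil serine protease 4 (NSP4), and the germline deletion was carried by the KO cells and by no control.

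Granulocyte-monocyte progenitors (GMPs) and common myeloid progenitors (CMPs) were sorted from marrow, with 4 WT and 4 KO libraries of each, all labelled female and sequenced in 1 run. Bone marrow-derived mast cells (BMMCs) were grown from sorted GMPs in medium with interleukin-3 and stem cell factor, with 5 WT and 5 KO libraries, all labelled male and sequenced in another run. No treatment was labelled, and the age of the mice is not given in the sources used here. Of the study's KO strains, its supplement names the one with a single deleted exon as that used in all but a later set of experiments, which did not include the sequencing. The study's legends give 4 biological replicates per genotype for the RNA sequencing of GMPs and 5 for BMMCs. The labels do not tie libraries to single mice or cultures, so p-values measure only the spread between these libraries, which may in part be technical.

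Libraries held 18627626 to 53264762 reads on genes. Prss57 had 18064 to 26556 reads in WT GMPs and 6 to 25 in KO GMPs, 2261 to 3926 in WT CMPs and 1 in each KO CMP library, and at most 27 in WT BMMCs against 0 in KO BMMCs. The extraction protocol in the labels names neurons, microglia and astrocytes, which are not the labelled cells, and the study's methods describe GMPs and BMMCs. Mast cell and GMP marker genes followed the labels. The summed level of 8 mast cell genes was 30900 to 46500 nRPKM in WT BMMCs against 512 to 641 in WT GMPs. That of 7 GMP genes was 30000 to 37800 in WT GMPs against 4190 to 8420 in WT CMPs. The sum of 5 CMP genes was 1140 to 1780 in WT CMPs against 363 to 413 in WT GMPs, but 1620 to 2050 in WT BMMCs. It thus did not set CMPs apart from BMMCs. The nRPKM is the deposited normalised level, reads per kilobase of transcript and library depth after division by a library size factor. Library KO BMMC 3 stood apart in its makeup, with the highest mast cell sum, 75400 nRPKM, and a sum of 7 macrophage and dendritic cell genes of 145 nRPKM, against up to 2290 in the other KO BMMC libraries. B cell and T cell marker sums stayed under 1 nRPKM in every group.

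RP mRNAs are among the most abundant in dividing cells. Their synthesis and translation are known to be set together by growth signals, through the mTOR pathway and a pyrimidine tract at the start of the mRNA. The genes are short and intron-containing, and most have many processed pseudogenes, copies of the mRNA pasted back into the genome. A short read from such an mRNA often matches several places. The authors counted reads of 50 bases that aligned to a single place, so the copies bear directly on which RP genes could be counted at all.

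The coding starts of a few members show how far this goes, and they are printed for that reason. Each line gives the first 60 coding bases on the gene's own strand, from the transcripts of the GRCm38 annotation. Rps27, at chr3:90212522-90213651 on the minus strand, and Rps27l, at chr9:66946086-66949516 on the plus strand, encode paralogs of a small-subunit protein, and capitals mark the bases at which they differ.
Rps27: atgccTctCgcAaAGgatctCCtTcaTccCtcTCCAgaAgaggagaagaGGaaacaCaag
Rps27l: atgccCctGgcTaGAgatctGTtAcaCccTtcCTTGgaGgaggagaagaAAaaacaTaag
They differ at 18 of these 60 bases and at 60 of 252 over the coding sequence. Rps12, at chr10:23785183-23787275 on the minus strand, encodes another small-subunit protein, and its copy Rps12l1, annotated as a processed pseudogene, lies at chr7:56014016-56014414 on the plus strand. They differ at 0 of the 396 coding bases of Rps12, and the line of Rps12l1 is the start of its transcript.
Rps12: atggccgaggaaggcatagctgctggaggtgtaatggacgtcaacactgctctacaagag
Rps12l1: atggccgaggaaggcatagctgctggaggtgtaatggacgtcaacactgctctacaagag
Rack1, at chr11:48800332-48806434 on the plus strand, encodes a scaffold protein on the small subunit and is the opposite case, with few matches elsewhere.
Rack1: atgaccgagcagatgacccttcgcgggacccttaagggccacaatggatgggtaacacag

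Every window of 50 bases along the coding sequence of the 90 RP genes, 43366 windows in all (whole transcript where the annotation gives no coding sequence), was matched against all annotated transcripts with up to 2 mismatches. In 67 RP genes no window was free of a match in another gene. In 89 of 90 at least 1 window matched an annotated pseudogene, and the median member matched 16 other genes, up to 174. Rack1 had 93.5% of its windows to itself, Rpl8, a large-subunit protein next to the peptidyl transferase centre, 90.3%, and Rps3 56.9%.

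The deposited levels followed this share. In WT GMPs the 67 RP genes without a unique window had a median of 530 reads and 9.53 nRPKM, and the 6 with at least 50% unique windows had 174723 reads and 3000 nRPKM. Rack1 had a median of 251787.5 reads in WT GMPs. Rps12 had 75.5, Rpl23a 0, and Rps6, the small-subunit protein phosphorylated downstream of mTOR, 9. Rps27, with 0% unique windows and matches in 18 other genes, had 70.5 reads, while Rps27l, with 35.5% and 6 other genes, had 6420. Apart from the paralogs these proteins are core parts of the same ribosome, so a level here does not rank the mRNAs of different RP genes. Levels of different genes below are deposited values set side by side, and the tests compare the same gene between libraries.

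**Figure D1:**
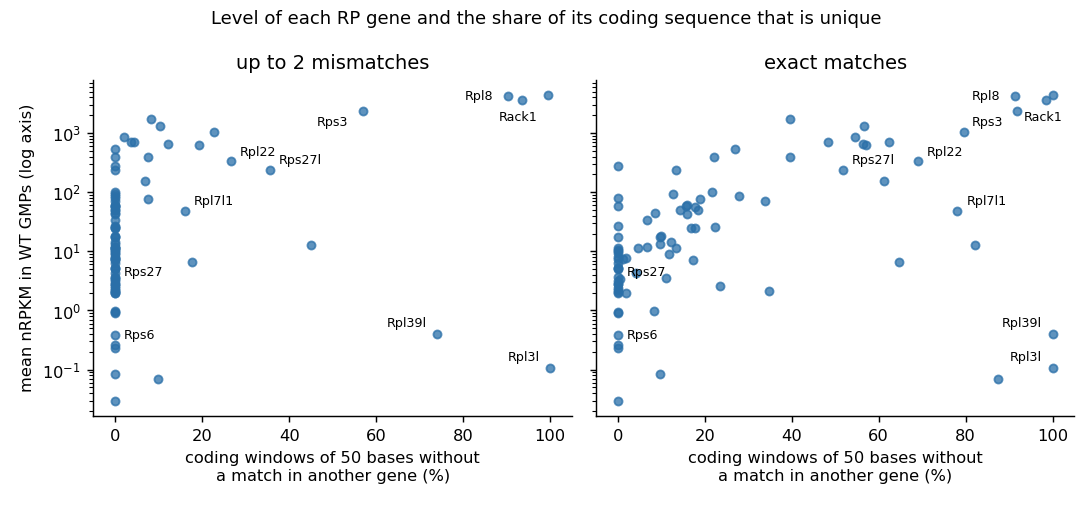
Each point is 1 RP gene, with the share of its 50-base coding windows that match no other gene on the x axis (%, up to 2 mismatches at left, exact matches at right) and its mean nRPKM in WT GMPs on a log y axis. Members without a read in these libraries are not drawn, and the labelled points at the lower right, Rpl3l and Rpl39l, are tissue-restricted paralogs that are unique and nearly silent.

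Over all 90 genes the share of unique windows and the level had a Spearman correlation of 0.45 in WT GMPs, 0.45 in WT CMPs and 0.43 in WT BMMCs. Without 12 paralogs and retrocopies, 78 genes remained and the values were 0.68, 0.68 and 0.67, and with exact matches 0.82, 0.81 and 0.84. These are descriptions across genes that share libraries and sequence, not replicates. Reads on annotated pseudogenes with an RP name amounted to 7.47 to 9.47 per 100 reads on the RP genes in every library, a narrow range over cell types that differed several-fold in RP reads.

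Most RP reads lay in a few genes. The 5 RP genes with the most reads, Rack1 first, held a median of 65.3% of all RP reads in WT GMPs and in WT CMPs, and 63.6% in WT BMMCs. At the other end, 69 of the 90 genes had at least 10 reads in every library and 22 had at least 1000. Rpl10l and Rps12l1 had no read in most libraries, and Rpl3l, Rpl39l, Rpl23a, Rps12, Rps29 and Rps3a2 had none in at least 1. A count of 0 allows up to 3 reads, or 0.0563 to 0.161 CPM depending on the library, counting error only.

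For paralog pairs the deposited levels were as follows, with the same limit. Rpl22 and Rpl22l1 encode paralogous large-subunit proteins. Rpl22 had 485, 283, 272 and 288 nRPKM in WT GMPs and Rpl22l1 12, 5.71, 5.17 and 6.02, with 26.6% and 0% unique windows. Rpl7l1, a biogenesis-linked relative of Rpl7, had 54.8, 45.4, 48.2 and 45.9 nRPKM, and Rpl7 had 38, 20.6, 20.1 and 24.6. Rps4x, on the X chromosome, and its autosomal copy Rps4l had 16 to 22.7 and 11.3 to 14.2 nRPKM in WT GMPs. Rpl3 itself had only 3.33 to 6.03 nRPKM in WT GMPs, Rpl10 4.17 to 6.59, Rpl39 7.42 to 18.7 and Rpl38, a large-subunit protein studied for its part in skeletal patterning, 2.22 to 5.21. The tissue-restricted paralogs were low in every group: Rpl3l, a muscle form, had at most 16 reads, Rpl10l, a testis form, at most 9, and Rpl39l, another testis form, at most 104, although 100% of the Rpl3l windows and 74.0% of the Rpl39l windows were unique.

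**Figure D2:**
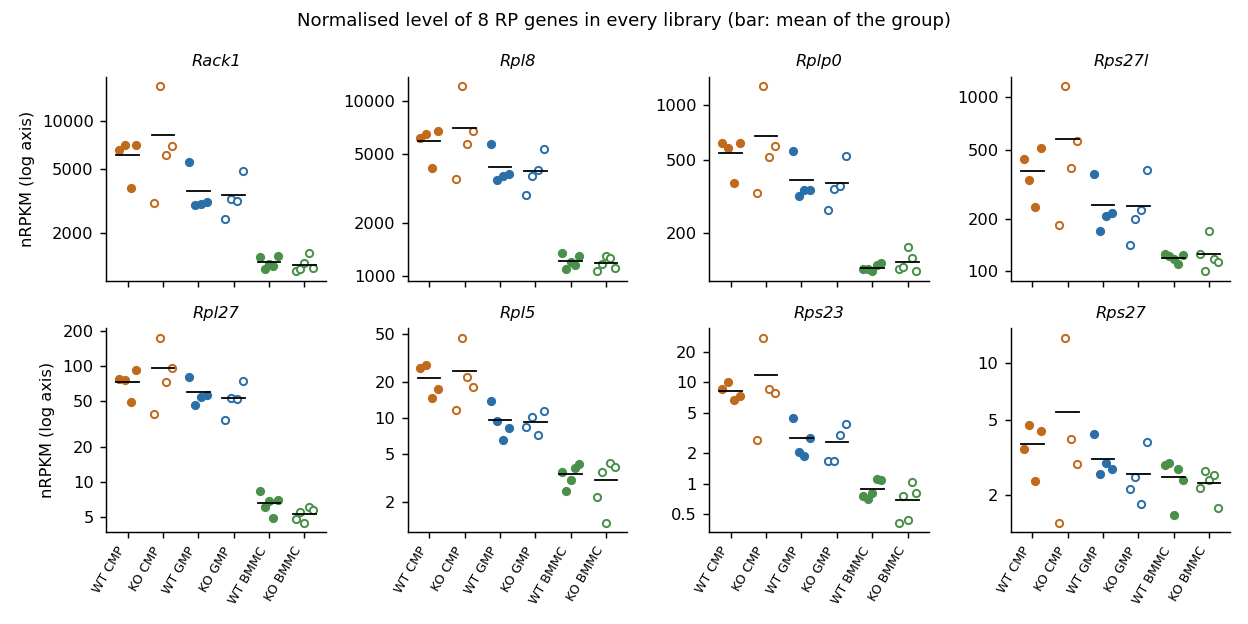
Each point is 1 library, with its nRPKM on a log y axis and the 6 groups on the x axis (filled points WT, open points KO, bars the group mean). In all 8 genes drawn the CMP means are above the GMP means and those above the BMMC means, and KO CMP 2 is the highest library in each.

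Rack1 and Rpl8 had their means in 1 order, CMPs above GMPs above BMMCs. Rack1 averaged 6115 ± 1554 nRPKM (SD, n = 4) in WT CMPs, 3651 ± 1218 (SD, n = 4) in WT GMPs and 1306 ± 107 (SD, n = 5) in WT BMMCs, and Rpl8 5875 ± 1178, 4191 ± 1008 and 1218 ± 103. Among the 69 RP genes with at least 10 reads in every library the lowest means were those of Rpl9 (2.40 ± 0.908 nRPKM), Rpl6l (2.63 ± 0.734) and Rps27 (3.11 ± 0.730) in WT GMPs. In WT CMPs Rpl6l (2.83 ± 0.866) and Rps27 (3.72 ± 1.04) were among the lowest, and in WT BMMCs Rpl6l (1.36 ± 0.162), Rpl3 (1.51 ± 0.221) and Rpl21 (1.73 ± 0.172). The spread of Rack1 and Rpl8 within CMPs and GMPs was large beside the step between them, and that within BMMCs was small. In bulk RNA, fewer cells with a high level and less RNA in each cell cannot be told apart.

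The RP genes together took 6.04, 5.99, 3.79 and 6.30% of reads in WT CMPs and 3.20, 10.6, 5.50 and 6.24% in KO CMPs. In WT GMPs they took 4.53, 2.72, 2.73 and 2.86%, and in KO GMPs 2.23, 2.91, 2.97 and 4.16%. The BMMC libraries lay between 0.764 and 1.02%. WT CMP 3 and KO CMP 1 thus fell inside the range of the GMP libraries, and KO CMP 2 held more than any other library. BMMCs did not overlap with either progenitor.

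**Figure D3:**
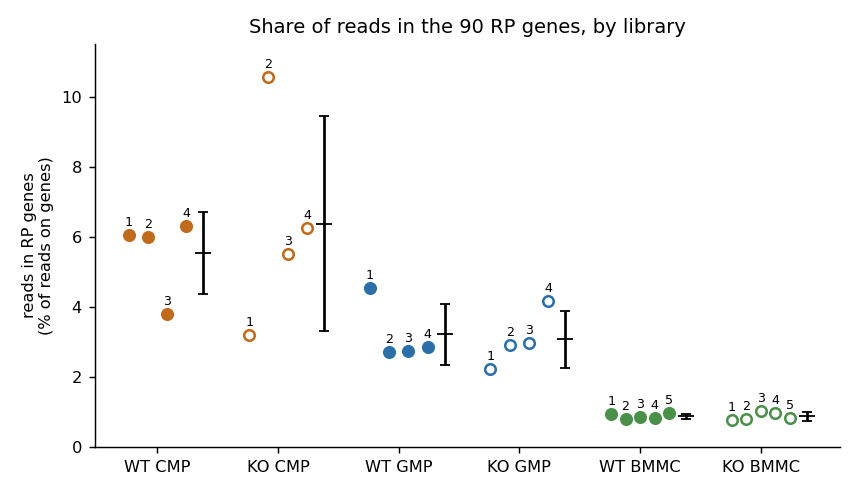
The y axis gives the percent of reads on genes that fell in the 90 RP genes, with 1 point per library (numbered), and the mean and SD of each group beside it. GMP and CMP groups overlap through WT GMP 1, KO GMP 4, WT CMP 3 and KO CMP 1, and the BMMC groups, with means of 0.88 and 0.872%, sit below both.

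Within a group, the RP genes moved as a block. In WT GMP 1 all 66 RP genes with at least 20 reads in every library lay above their group mean, by a median of 0.51 on the log2 scale. In KO GMP 1 all 66 lay below theirs, with a median of -0.45, and in KO GMP 4, 65 of 66 lay above, with 0.50. WT CMP 3 had 65 of 66 below the mean, with -0.53. KO CMP 1 and KO CMP 2 were the widest apart, with medians of -0.85 and 0.76.

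Gene length moved with this. For each library the deviations of all other genes from the group mean were regressed on log2 gene length, over genes with a mean of at least 100 reads. The slope was negative, short genes being relatively high, in WT GMP 1 (-0.209), KO GMP 4 (-0.17) and KO CMP 2 (-0.371), and positive in KO GMP 1 (0.157), WT CMP 3 (0.208) and KO CMP 1 (0.342). The RP genes are short, with a median length of 925 bp against 3103 bp for genes with a mean of at least 100 reads, and 87 of 90 lie below that median. The 937 other genes under 1000 bp deviated in the same direction and less in the libraries farthest from their group mean: by 0.36 in WT GMP 1 where the RP genes deviated by 0.51, by -0.61 against -0.85 in KO CMP 1, and by 0.55 against 0.76 in KO CMP 2. In KO BMMC 3 the RP genes lay 0.21 above and the other short genes 0.09. Which part of the RP deviation went with length and which did not was not tested.

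**Figure D4:**
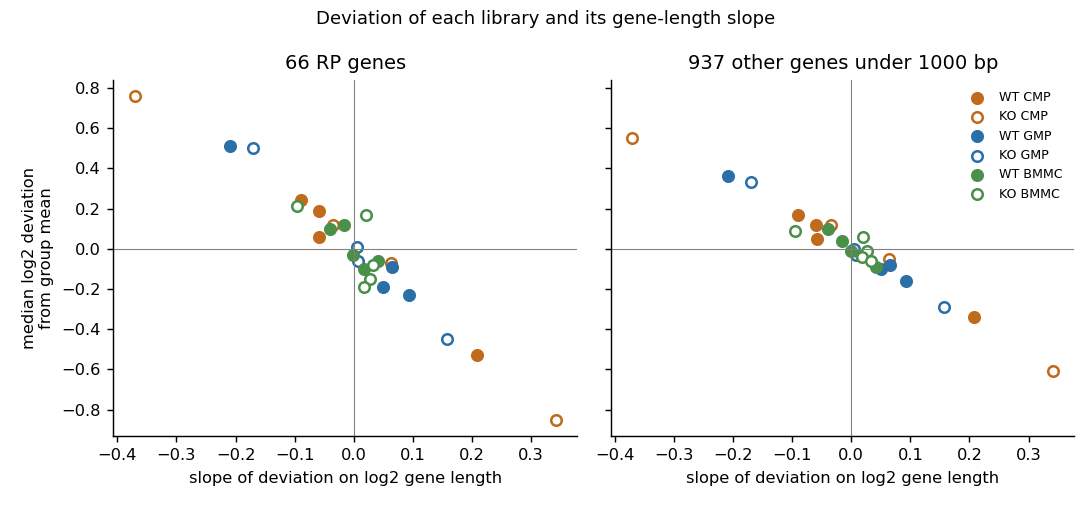
Each point is 1 library, with the slope of its log2 deviations on log2 gene length on the x axis and the median log2 deviation from the group mean on the y axis, for the 66 RP genes at left and the 937 other genes under 1000 bp at right. Both fall along a line from KO CMP 2 at upper left to KO CMP 1 at lower right, the RP genes more steeply.

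The comparison of KO with WT cells asked what the loss of NSP4 changes. No RP gene passed the test in any cell type. In GMPs 84 RP genes were tested by edgeR's quasi-likelihood test and 0 were called at an adjusted p under 0.05 (Benjamini-Hochberg over all genes tested), where 0.0136% of all genes were called. In CMPs it was 0 of 85, against 0.0067% of all genes, and in BMMCs 0 of 77, against 0.0%. At an unadjusted p under 0.05 there were 0, 0 and 1 RP genes, beside 0.81, 0.51 and 2.38% of all genes. Limma voom and DESeq2 also called 0 RP genes.

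The sizes set limits to this. In BMMCs the median log2 fold change (KO minus WT) was -0.03, with a median standard error of 0.17, the smallest of the cell types. This fit includes KO BMMC 3, which stood apart in its makeup, and without it the median was -0.11. Rack1 was at 1143, 1186, 1294, 1489 and 1199 nRPKM in KO BMMCs and at 1415, 1189, 1274, 1229 and 1422 in WT BMMCs, overlapping throughout, with a log2 fold change of -0.05 ± 0.11 (SE) and an adjusted p of 1.0 in edgeR. In GMPs the median was -0.06 with a median standard error of 0.28, and Rack1, at 2427, 3251, 3169 and 4825 against 5476, 2991, 3024 and 3112 nRPKM, gave -0.09 ± 0.25 (SE).

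In CMPs 82 of 85 RP genes had a log2 fold change above 0, with a median of 0.38, but the median standard error was 0.45. Rack1 was at 3069, 16358, 6115 and 6962 nRPKM in KO CMPs and at 6580, 6997, 3806 and 7074 in WT CMPs. Its highest and its lowest value were both in KO CMPs, and the log2 fold change was 0.38 ± 0.46 (SE). Without KO CMP 2 the median over the RP genes was -0.14, and without KO CMP 1 it was 0.61. Other genes under 1000 bp had a median of 0.27 in the same fit and genes of 4000 bp and above 0.0. The test of whether the genotype difference differs between GMPs and CMPs called 0 of 85 RP genes and 0.0% of all genes. At an unadjusted p under 0.05 it gave 0 RP genes and 1.06% of all genes. The median interaction over the RP genes was -0.44.

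GMPs against CMPs compared neighbouring steps of myeloid development. RP genes were lower in GMPs. In WT cells 26 of 85 RP genes tested were called lower and 0 higher, and 82 had a log2 fold change below 0, with a median of -0.61. Over all genes 18.8% were called lower and 19.0% higher. In KO cells, which share no library with the WT fit, 5 of 85 were called lower and 0 higher, where 10.9% of all genes were lower and 10.6% higher, all 85 lay below 0 and the median was -1.04. At an unadjusted p under 0.05, 48 were lower in WT and 52 in KO, and 0 higher. Of all genes 48.7% in WT and 40.1% in KO passed that limit in either direction. Limma voom and DESeq2 also called 0 RP genes higher. The share of RP genes called lower was thus above that of all genes in WT (30.6%) and under it in KO (5.88%). The KO median was nevertheless further from 0, with a median standard error of 0.46 against 0.26 in WT. The 5 called in KO, Rpl5, Rpl15, Rpl21, Rpl31 and Rps23, were all among the 26 called in WT, 19.2% of that list.

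Rps23, a small-subunit protein of the decoding centre, fell the most. It had 2.06, 1.85, 2.85 and 4.42 nRPKM in the WT GMP libraries and 8.52, 10.2, 6.61 and 7.30 in WT CMPs, with no overlap. In KO it had 1.68, 1.68, 3.04 and 3.87 nRPKM in GMPs and 2.71, 27.5, 8.51 and 7.87 in CMPs, overlapping through KO CMP 1. The log2 fold change was -1.53 ± 0.28 (SE), with an adjusted p of 0.00192 in edgeR, and -2.11 ± 0.63 with 0.0409 in KO. It rests on few reads, 88 to 195 in WT GMPs.

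Rpl15, a large-subunit protein, followed with 14.7 to 25.8 nRPKM in WT GMPs and 32.2 to 54.4 in WT CMPs, again without overlap. Its log2 fold change was -1.23 ± 0.21 (SE; adjusted p = 0.00129 in edgeR) in WT and -1.52 ± 0.42 (adjusted p = 0.033) in KO. Rpl5 and Rpl11 form a particle with 5S rRNA that binds Mdm2, the ubiquitin ligase of p53. Rpl5 had 13.9, 9.46, 6.50 and 8.26 nRPKM in WT GMPs and 26, 27.5, 14.6 and 17.3 in WT CMPs, lower in every GMP library than in any CMP library. It fell by 1.14 on the log2 scale in WT (SE 0.26, adjusted p = 0.0066) and by 1.34 in KO (SE 0.37, adjusted p = 0.0324), both in edgeR. Exon bases of Rpl5 overlap Fam69a on the other strand over 953 bases, those of Rpl31 overlap Tbc1d8 over 420 and those of Rpl15 overlap Nkiras1 over 105, and whether the counting used strand is not given in the sources used here. Rpl11 fell by 1.05 in WT (SE 0.29, adjusted p = 0.0165), from 128 to 199 reads in CMPs to 71 to 98 in GMPs, and stood at -0.83 ± 0.30 (adjusted p = 0.0772) in KO. Rpl32l, annotated as a processed pseudogene, was also among the 5 largest falls in WT, at -1.21 ± 0.31 (adjusted p = 0.0119).

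Rack1 and Rpl8, with deep counts, gave smaller and less certain differences. Rack1 stood at -0.72 ± 0.24 (SE; adjusted p = 0.0391 in edgeR) in WT, with WT GMP 1, at 5476 nRPKM, inside the CMP range of 3806 to 7074, and at -1.19 ± 0.45 (adjusted p = 0.0882) in KO. Rpl8 did not pass in either, at -0.47 ± 0.19 and -0.76 ± 0.35. Of the stalk proteins, which draw elongation factors to the ribosome, Rplp0 was at -0.47 ± 0.21, Rplp1 at -0.50 ± 0.22 and Rplp2 at -0.60 ± 0.22 in WT, none past the threshold.

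Rps14, Rps19 and Rpl35a are some of the RP genes whose loss is known from inherited or acquired anaemias. Such genes were not followed as a class. Rps14 was at -0.81 ± 0.30 (SE; adjusted p = 0.0552 in edgeR), Rps19 at -0.66 ± 0.26 (adjusted p = 0.0689) and Rpl35a at -0.77 ± 0.29 (adjusted p = 0.0558) in WT, all just outside the threshold. Rpl13a, with 118 to 221 nRPKM in WT GMPs and 181 to 350 in WT CMPs, passed at -0.89 ± 0.23 (adjusted p = 0.0129). Among the paralogs, whose difference within a pair was not tested, Rpl22 fell by 0.63 (SE 0.23, adjusted p = 0.0487), and Rpl22l1 was at -0.76 ± 0.34, Rps27l at -0.64 ± 0.27 and Rpl7l1 at -0.18 ± 0.11 without passing. Rps4x fell by 0.47 (SE 0.16, adjusted p = 0.0366 in edgeR) and Rps4l was at -0.06 ± 0.16 (adjusted p = 0.778). The Rps4x call was lost after the length offset, at -0.18, and when any 1 library other than WT GMP 1 or WT CMP 3 was left out. Over 22 alternative runs in WT, with other settings or libraries left out, the Rpl22 call was lost in 8 and the Rack1 call in 7. In the same runs Rps14 and Rpl35a were called in 11 each and Rps19 in 9.

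The number called moved with single libraries. Without WT CMP 3 it was 60 in WT and without WT GMP 1 it was 58, and without both 72, with a median of -1.02, while leaving out any 1 of the other WT libraries gave 9 to 12. Over all genes the number lower also rose without both, from 2821 of 14967 to 4572 of 15070. In KO it was 67 without KO CMP 1, and 0 to 3 without any 1 of the other KO libraries. For the runs without 1 library the number called over all genes is not given here. Those counts therefore cannot be read as a change of the RP genes alone. The direction of the median did not change under any of these. Gene length moved with the comparison: the group difference rose by 0.158 per doubling of length in WT and by 0.241 in KO, and other genes under 1000 bp had medians of -0.33 and -0.62. RP genes of 1000 bp and above had a median of -0.62 in WT, close to the -0.58 of those under 1000 bp. The length offset was a smooth trend on gene length, fitted to each library's deviation from the mean of all libraries compared. It thus also takes out length trends between the groups. After it, 31 RP genes were lower in WT with a median of -0.33, and 16 in KO with a median of -0.47. Over all genes the offset raised the number lower from 2821 to 3414 in WT and from 1634 to 2502 in KO.

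Cell makeup moved with it too. The summed level of 6 erythroid genes was 664 to 1180 nRPKM in WT CMPs against 24.9 to 60.7 in WT GMPs, with none of the 6 at 0 in either. That of 4 megakaryocyte genes was 776 to 1450 against 43.6 to 108, also with none at 0. That of 5 neutrophil genes was 10.1 to 29.3 against 1370 to 3100, highest in WT GMP 1. Their part in the RP difference was not tested.

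BMMCs against GMPs set the cultured mast cells beside the progenitors they were grown from. RP genes were lower in BMMCs almost throughout. In WT cells 74 of 82 RP genes tested were called lower and 1 higher, with a median log2 fold change of -1.56, where 40.8% of all genes were lower and 40.8% higher. In KO cells 71 of 83 were lower and 0 higher, with a median of -1.53, against 36.2% and 37.7% of all genes. Of the KO fit, 0 were higher at an unadjusted p under 0.05 and by DESeq2 or limma voom, and 1 with sample quality weights. That unadjusted limit was passed by 75.8% of all genes in either direction. The share of RP genes called in either direction was 91.5% in WT and 85.5% in KO. Most genes were called here, as the 40.8% lower and 40.8% higher in WT add up, as do the 36.2% and 37.7% in KO. In both fits, which share no library, 70 genes were lower, 94.6% of the WT list and 98.6% of the KO list. Cell type, sex and sequencing run change together here and cannot be told apart. The macrophage and dendritic cell sum was 1290 to 1950 nRPKM in WT BMMCs against 119 to 135 in WT GMPs, with none of its 7 genes at 0, and the neutrophil sum 38.9 to 179 against 1370 to 3100, and their part was not tested.

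**Figure D5:**
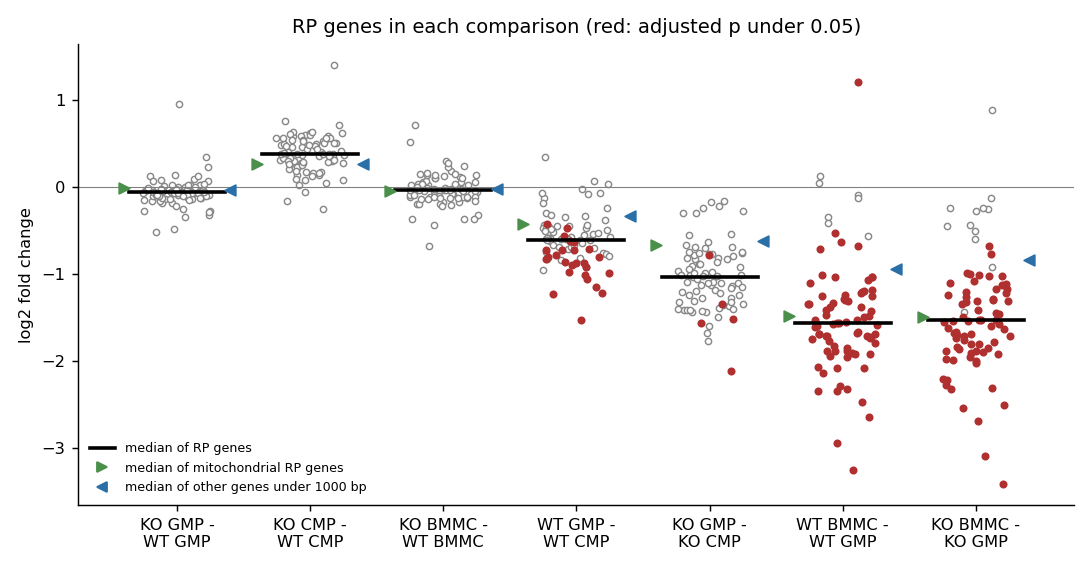
Each point is 1 RP gene, with its log2 fold change on the y axis and the 7 comparisons on the x axis (red, adjusted p under 0.05 in edgeR), beside the medians of the RP genes (black), of mitochondrial RP genes (green) and of other genes under 1000 bp (blue). Genotype comparisons centre near 0 apart from CMPs, and both BMMC comparisons centre near -1.5.

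Rpl27, a large-subunit protein, fell the most. It had 79.9, 46.0, 53.6 and 56.4 nRPKM in WT GMPs and 8.37, 6.06, 6.89, 4.86 and 6.94 in WT BMMCs, far from overlapping, with 95 to 155 reads in BMMCs. The log2 fold change was -3.25 ± 0.19 (SE; adjusted p = 1.36e-08 in edgeR) in WT and -3.42 ± 0.22 (adjusted p = 6.71e-07) in KO. The lowest WT GMP library held several times the level of the highest WT BMMC library.

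Rps27a, which is made as a fusion with ubiquitin, fell by 2.47 on the log2 scale in WT (SE 0.23, adjusted p = 9.41e-07 in edgeR) and by 2.68 in KO. Rpl31 fell by 2.34 (SE 0.24, adjusted p = 2.19e-06) and by 2.32. Rps12 was among the 5 largest falls in KO, at -2.50 ± 0.64, on 0 to 11 reads in KO BMMCs. Only Rps13 was called higher, in WT, at 1.21 ± 0.48 (adjusted p = 0.033), from 6 to 27 reads in GMPs to 11 to 27 in BMMCs. The call was lost when WT GMP 2, 3 or 4 or WT BMMC 2 or 3 was left out.

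Rack1 and Rpl8 fell beyond the spread between libraries. Rack1 was at 1189 to 1422 nRPKM in WT BMMCs against 2991 to 5476 in WT GMPs, a log2 fold change of -1.58 ± 0.18 (SE; adjusted p = 5.45e-06 in edgeR), and at -1.53 ± 0.20 in KO. Rpl8 gave -1.88 ± 0.15 and -1.85 ± 0.18. The stalk proteins stayed together: Rplp0 at -1.69 ± 0.15, Rplp1 at -1.47 ± 0.16 and Rplp2 at -1.66 ± 0.15 in WT, all past the threshold. Rps14 fell by 2.07, Rps19 by 1.72, Rpl35a by 1.85, Rpl5 by 1.57, Rpl11 by 1.74 and Rpl13a by 2.34 in WT, also past it. Rpsa, the small-subunit protein also known as a laminin receptor, fell by 2.06, and Rpl41, which encodes the shortest RP, by 1.37.

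Paralogs parted here. Rpl22l1 was at 5.17 to 12 nRPKM in WT GMPs and 0.572 to 1.86 in WT BMMCs, a log2 fold change of -2.94 ± 0.37 (SE; adjusted p = 1.13e-05 in edgeR), against -1.71 ± 0.17 for Rpl22. Rps4l fell by 2.65 (SE 0.25), from 11.3 to 14.2 nRPKM to 1.38 to 3.88, and Rps4x went from 16 to 22.7 nRPKM to 7.53 to 9.26. Rpl7l1 fell by 0.68 (SE 0.08) and Rpl7 by 1.34 (SE 0.18), and Rps27l fell by 1.1 (SE 0.18), while Rps27 overlapped between 2.57 to 4.18 nRPKM in GMPs and 1.56 to 2.94 in BMMCs. The difference between the paralogs of a pair was not tested, and after the length offset Rps27l was at -0.01 in WT (adjusted p = 0.956 in edgeR), where the call was lost, and at 0.09 in KO.

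Length moved with this comparison more than with any other. The group difference rose by 0.563 per doubling of gene length in WT and by 0.535 in KO. Other genes under 1000 bp had a median of -0.94 in WT, with 59.1% called lower, and genes of 4000 bp and above one of 0.62. The 47 RP genes under 1000 bp had a median of -1.42 and the 35 longer ones -1.58, a difference that was not tested. After the length offset 55 RP genes were lower and 5 higher in WT, with a median of -0.72, and 46 and 4 in KO, with a median of -0.64. Over all genes 5478 of 14754 were then lower and 6449 higher in WT, and 4735 of 14929 and 5969 in KO. RP genes with some unique windows had a median of -1.71 in WT and those without any -1.53.

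Other genes of the ribosome and its making were followed from 6 lists. Genotype and the interaction called 0 genes in each of them. Of 77 mitochondrial RP genes tested, which are also short but belong to the other ribosome, 22 were lower and 0 higher in WT GMPs against CMPs, with a median of -0.42, where 18.8% of all genes were lower, and 5 and 0 in KO, with -0.66, where it was 10.9%. In BMMCs against GMPs 74 of 76 were lower in WT, with a median of -1.48, and 74 of 76 in KO, with -1.49, beside medians of -1.56 and -1.53 for the cytosolic RP genes. The share of all genes lower there was 40.8% in WT and 36.2% in KO. Fau and Rpl36al, cytosolic RP genes outside the rule, were lower in BMMCs, Fau at -0.72 ± 0.22 (SE) and Rpl36al at -2.78 ± 0.22 in WT. Fau turned to 0.23 after the length offset. In WT GMPs against CMPs Rpl36al was higher, at 0.86 ± 0.29 (adjusted p = 0.0423 in edgeR), and Fau was at -0.02 ± 0.24.

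Ribosome biogenesis factors had a median near 0 between the progenitors and below it in BMMCs. Of 55 tested, 16 were lower and 2 higher in WT GMPs against CMPs, with a median of -0.01, and 6 and 0 in KO, beside the same 18.8% and 10.9% of all genes lower. Npm1, a nucleolar chaperone, was at -0.69 ± 0.14 (SE; adjusted p = 0.00304 in edgeR) in WT. In BMMCs 43 were lower and 6 higher in WT, with a median of -0.90, and 48 and 3 in KO, with -0.98, where 40.8% and 36.2% of all genes were lower. Fbl, the methyltransferase of ribosomal RNA, had 797 to 1000 reads in WT GMPs and 58 to 110 in WT BMMCs, a log2 fold change of -2.24 ± 0.16, and Npm1 was at -1.44 ± 0.16. Of 14 RNA polymerase I genes 12 were lower in WT BMMCs and 10 in KO, with medians of -0.73 and -0.65 and 0 higher. Polr1b, its second-largest subunit, fell by 1.87 (SE 0.10). Between the progenitors 4 were lower and 1 higher in WT, and 3 and 0 in KO, where 18.8% and 10.9% of all genes were lower.

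Translation factors and other genes with the same pyrimidine tract as the RP mRNAs also had medians below 0. Of 15, 6 were lower and 1 higher in WT GMPs against CMPs, with a median of -0.48, and 2 and 0 in KO, with -0.77, again beside 18.8% and 10.9% of all genes lower. Eif3e, a subunit of an initiation factor, was at -0.89 ± 0.21 (SE; adjusted p = 0.00794 in edgeR) in WT and Pabpc1, the poly(A)-binding protein, was the one that rose, at 0.66 ± 0.15 (adjusted p = 0.00762). In BMMCs 14 of 15 were lower in WT, with a median of -1.04, and 13 of 15 in KO, with -0.91. Of all genes 40.8% were lower in WT BMMCs and 36.2% in KO. Eef1g, a subunit of an elongation factor, fell by 1.72 (SE 0.13).

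Regulators of RP synthesis were called in both directions. Of 16, 4 were higher and 2 lower in WT GMPs against CMPs, and 2 and 1 in KO. Of all genes 19.0% were higher and 18.8% lower in WT, and 10.6% and 10.9% in KO. In BMMCs against GMPs 6 were higher and 5 lower in WT, and 4 and 4 in KO, beside 40.8% and 40.8% of all genes in WT and 37.7% and 36.2% in KO. Myc, a transcription factor that drives ribosome synthesis, averaged 150.7 ± 18.5 nRPKM (SD, n = 4) in WT GMPs and 47.7 ± 12.9 (SD, n = 5) in WT BMMCs, a log2 fold change of -1.75 ± 0.18 (SE; adjusted p = 1.69e-06 in edgeR). Mycn, its relative, had 5 to 17 reads in WT GMPs, 747 to 1301 in WT CMPs and 83 to 203 in WT BMMCs, and was lower in GMPs than in both. Mdm2, the partner of the Rpl5 and Rpl11 particle, rose from 12.1 ± 1.51 nRPKM in WT GMPs to 71.9 ± 2.39 in WT BMMCs, at 2.48 ± 0.10 (adjusted p = 5.85e-10).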

How the data were processed

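RNA of 26 libraries was sequenced by the authors as stranded total RNA libraries with single-end reads of 50 bases. Reads were aligned to GRCm38 with GSNAP, per the submitters' processing notes, and reads aligned to 1 place were counted over exons. The version of GSNAP and whether counting used strand are not given in the sources used here. The deposited files give a count per gene, as raw read counts, and a level that the authors made from it, an RPKM divided by a library size factor (nRPKM). Ensembl identifiers were matched to symbols for 52403 of 52636 genes. Groups came from the labels.

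The members, gene lists and tests were chosen with earlier results of these data known. Counts were tested with edgeR 4.0.16 in R 4.3.3 (quasi-likelihood, robust, TMM, filterByExpr), with 1 fit per comparison over the libraries of that comparison and Benjamini-Hochberg adjustment over all genes tested. A gene was called at an adjusted p under 0.05, with no limit on the fold change. The test was tested on simulated data. Alternatives used limma 3.58.1, DESeq2 1.42.0, other scalings, filters and dispersions, a replicate block, gene length as an offset or its slope as a covariate, a stricter threshold and each library left out. Leaving out 2 libraries together was chosen after seeing the data. Levels were not tested. Coding windows were matched with bwa 0.7.19-r1273 against annotated transcripts, not the genome. Figures used matplotlib 3.10.9.

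RP genes were named by rule: paralog pairs, stalk proteins, Rpsa, Rack1 and 10 others with known roles, the 5 largest called rises and falls per comparison, the 3 highest and lowest levels per cell type, and genes without reads in most libraries. Rps3, Rpl23a, Rps29, Rps3a2 and the genes named from the other lists were chosen after their values were seen. Some genes that the rule takes are not reported here. Intervals of counting error apply only to the limit for a count of 0. No 2 libraries were alike within sampling noise.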

Additional observations from a re-analysis of the deposited data

Results flagged for a closer look

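In groups of 4 or 5 libraries, 12 of 66 tests of the most extreme library against the others of its group passed Dixon's 95% limit, where chance passes about 1 in 20. Most of them fell on the same libraries. WT GMP 1 was high in the RP share of reads, at 4.53% against 2.72 to 2.86% in the other WT GMPs, and its slope on gene length was -0.209 against 0.05 to 0.093. Rack1 was at 5480 nRPKM there against 2990 to 3110, Rpl8 at 5690 against 3550 to 3810, Rplp0 at 557 against 319 to 344 and Rpl22l1 at 12 against 5.17 to 6.02. WT CMP 3 was low, with a share of 3.79% against 5.99 to 6.3%, a slope of 0.208 against -0.09 to -0.058, Rack1 at 3810 nRPKM against 6580 to 7070 and Rplp0 at 375 against 582 to 617. The slope of KO BMMC 3 was -0.096 against 0.018 to 0.033 in the other KO BMMCs. Rps4l stood at 3.88 nRPKM in WT BMMC 1 against 1.38 to 2.0. The part of gene length or cell makeup in these values was not tested.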

How the results depend on the processing

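Genotype and its interaction with cell type called 0 RP genes under every alternative run, and the median of the RP genes stayed below 0 in GMPs against CMPs and in BMMCs against GMPs. The number called lower in WT GMPs against CMPs, 26, became 74 with limma voom and sample quality weights, 41 with DESeq2, 54 with library size alone, 62 with the length slope as covariate, 5 with all 16 progenitor libraries in 1 fit, 3 at an adjusted p under 0.01 with at least 2-fold, and 72 (median -1.02) without WT GMP 1 and WT CMP 3. In KO the 5 became 2 with limma voom, 70 with quality weights, 47 with DESeq2, 23 with library size alone, 16 with the length offset (median -0.47), 69 with the slope covariate, 47 with all 16 libraries, 45 without KO CMP 1 and 2, and 0 under the stricter threshold. Over all genes the number lower moved too. In WT, 2821 became 5033 with quality weights, 3330 with DESeq2, 4060 with library size alone and 4359 with the slope covariate. With all 16 libraries it was 1989 in WT and 2987 in KO. In KO, 1634 became 1474 with limma voom, 4367 with quality weights, 2783 with DESeq2 and 2065 with library size alone. It was 2502 with the length offset, 4403 with the slope covariate and 2753 without KO CMP 1 and 2. In BMMCs against GMPs the 1 higher in WT became 2 with quality weights, 5 with the length offset and 0 with library size alone, at least 10 counts in every library or the stricter threshold, and the 0 in KO became 1 with quality weights or no filter and 4 with the offset. The offset moved the WT median to -0.72, the KO median to -0.64 and the KO count of lower genes to 46.

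With the replicate number as a block, 51 RP genes were lower in WT GMPs against CMPs and 12 in KO, 73 and 68 in BMMCs against GMPs with 0 higher in both, and genotype called 0. Over all genes 3208 in WT and 1731 in KO were lower in GMPs against CMPs, and 5687 and 4827 in BMMCs against GMPs. Same-numbered libraries did not all deviate together. Their correlations ran from -0.44 to 0.20 in GMPs (mean -0.05), -0.22 to 0.43 in CMPs (mean 0.19, 3 of 4 best with their own number) and -0.29 to 0.31 in BMMCs (mean -0.09) between genotypes. Between GMPs and CMPs they ran from -0.05 to 0.36 in WT (mean 0.16, other numbers -0.07) and -0.02 to 0.65 in KO (mean 0.23, other numbers -0.08), and no comparison had every pair over 0.1, so the numbers were not taken to pair the samples.

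Leaving out 1 library gave 9 to 60 lower in WT GMPs against CMPs (medians -0.83 to -0.49) and 0 to 67 in KO (-1.32 to -0.58). It gave 0 to 1 higher and 72 to 75 lower in WT BMMCs against GMPs (-1.62 to -1.31), and 0 to 2 and 69 to 73 in KO (-1.65 to -1.34). The numbers over all genes in these runs are not given here. Genotype medians ran from -0.30 to 0.19 in GMPs, -0.14 to 0.61 in CMPs, -0.11 to 0.02 in BMMCs and -0.67 to 0.06 for the interaction. Single uncalled values changed sign. With quality weights Rack1 was at 0.05 for genotype in GMPs, -0.04 in CMPs and 0.07 for the interaction. Over single libraries left out it ran from -0.30 to 0.18 in GMPs, above 0 without WT GMP 1 or KO GMP 1 (0.06 without the latter), from -0.20 to 0.62 in CMPs and from -0.72 to 0.09 for the interaction, turning without KO CMP 2 in both. The length offset turned Fau in BMMCs against GMPs to 0.23 in WT and 0.12 in KO, Rps27l to 0.09 in KO, and Rps4l in GMPs against CMPs to 0.24 in WT and 0.27 in KO. Rps4l in WT ran from -0.17 to 0.07 over single libraries left out, above 0 without WT CMP 2. The causes were not tested beyond the fewer samples or the construction of each alternative. Depth limits the RP genes with few uniquely placed reads.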
